A study of Mus musculus with 33 samples.

Results

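Interferon-stimulated genes are the genes that cells switch on after an interferon binds its receptor, and they encode most of the proteins that sense, trap or destroy viruses inside a cell. A list of 37 such genes was followed, gene by gene, through 33 RNA-seq libraries of microglia, the macrophages that live in brain tissue, sorted from mice. All 37 were found among the 54146 gene identifiers of the files. The members were given as a list of names, and a member was said to follow Irf8, 5xFAD or Batf3 when the matching comparison passed an adjusted p under 0.05 in edgeR's quasi-likelihood test over all genes, with Benjamini-Hochberg adjustment. By that rule 17 members (45.9%) followed Irf8 in at least 1 of 3 comparisons of IRF8KO mice with their controls, where 38.5% of all 15140 genes tested did. In 5xFAD against WT 1 member was called, and in Batf3KO against WT 0 were.

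All mice were labelled C57BL/6 and female, and microglia were sorted from single brains dissociated without enzymes. The first experiment set mice lacking Irf8 from the germline (IRF8KO) against WT mice at 3 months, with 4 libraries each. At 9 months there were 3 libraries each of WT, IRF8KO, 5xFAD and 5xFAD/IRF8KO mice, where 5xFAD is a transgenic model of familial Alzheimer's disease that makes mutant human amyloid precursor protein and presenilin in neurons. Another experiment set Batf3-/- mice (Batf3KO) against their own WT mice at 3 months, with 3 libraries each. The fourth held mice with floxed Irf8 alleles, 3 libraries without Cre (flox) and 4 with the tamoxifen-inducible Cx3cr1CreERT2 driver (Cre). Both flox and Cre mice received tamoxifen on 5 days from postnatal day 12, and the cells were sorted at 3 months. The series' design text names a Rosa26LSL-EYFP reporter and a sort of YFP-positive cells for this experiment. Cx3cr1 is also active in other macrophages of the brain's borders.

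Type I interferons signal through the receptor pair IFNAR1 and IFNAR2 and the kinases JAK1 and TYK2 to a complex that includes STAT2 and IRF9 and binds the interferon-stimulated response element of its target promoters. IRF8, the factor removed here, belongs to the same family of DNA-binding proteins, is made mainly in macrophages, dendritic cells and B cells, and binds either that element or a composite site with an ETS factor such as PU.1. BATF3 is a leucine zipper protein that works with IRF8 in dendritic cells.

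The promoters show what these genes share and what they do not. A window of 250 bases before to 50 after the start was held for 28 of the 37 members in the RefSeq table of GRCm38.p6. Members with no window there were Oas2, Mx1, Mx2, Ifi27l2a, Usp18, Rtp4, Dhx58, Parp14 and Zbp1. The response element, searched as GAAA, any 2 bases and GAAA on both strands, was present in 18 of the 28 windows (64.3%) and in 3.99% of the 27025 genes of the table. The composite element, searched as GGAA, any 2 bases and GAAA on both strands, was present in 4 of 28 (14.3%), against 3.16% of all genes. The letters of these motifs overlap, so 1 stretch of DNA can hold both. Of the members that followed Irf8 and had a window, the response element was present in 5 of 8 that were higher without Irf8 and in 3 of 5 that were lower. Shown here are the 4 members with a window that were called in the most comparisons, then 2 called in none, from 170 bases before to 30 after the start, 5′ to 3′ on the gene's own strand. Capitals mark matches to the response element on either strand, and a match on the opposite strand reads as TTTC, any 2 bases and TTTC.
Cmpk2 (chr12:26469045-26469244, plus strand): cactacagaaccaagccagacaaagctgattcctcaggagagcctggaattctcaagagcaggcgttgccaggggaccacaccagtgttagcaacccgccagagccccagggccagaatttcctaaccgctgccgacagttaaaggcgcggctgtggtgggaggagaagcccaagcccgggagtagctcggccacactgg
Ifitm3 (chr7:141010715-141010914, minus strand): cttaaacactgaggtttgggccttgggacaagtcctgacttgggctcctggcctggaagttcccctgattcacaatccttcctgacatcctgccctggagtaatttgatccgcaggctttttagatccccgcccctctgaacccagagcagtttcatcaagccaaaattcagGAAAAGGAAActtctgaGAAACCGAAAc
Ddx58 (chr4:40239796-40239995, minus strand): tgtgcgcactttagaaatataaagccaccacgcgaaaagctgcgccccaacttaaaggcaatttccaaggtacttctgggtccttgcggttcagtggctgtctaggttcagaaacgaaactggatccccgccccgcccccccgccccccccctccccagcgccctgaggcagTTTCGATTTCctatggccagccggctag
Rsad2 (chr12:26456423-26456622, minus strand): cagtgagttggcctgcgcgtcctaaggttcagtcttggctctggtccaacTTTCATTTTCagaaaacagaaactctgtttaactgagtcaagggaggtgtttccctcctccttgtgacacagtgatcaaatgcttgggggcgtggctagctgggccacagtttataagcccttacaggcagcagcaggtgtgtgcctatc
Xaf1 (chr11:72301459-72301658, plus strand): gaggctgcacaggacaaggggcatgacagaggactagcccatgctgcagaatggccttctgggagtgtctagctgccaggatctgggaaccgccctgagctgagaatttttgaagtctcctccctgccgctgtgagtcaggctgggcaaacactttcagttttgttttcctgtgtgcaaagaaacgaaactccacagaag
Trim30a (chr7:104465164-104465363, minus strand): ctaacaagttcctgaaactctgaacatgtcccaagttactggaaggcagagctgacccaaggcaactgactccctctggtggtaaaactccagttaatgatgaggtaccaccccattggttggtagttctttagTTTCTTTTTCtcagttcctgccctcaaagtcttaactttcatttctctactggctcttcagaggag
Ifitm3 held 2 matches just after its start, Ddx58 1 and Rsad2 1, while Cmpk2, the member called most often, held none in these letters. Trim30a, called in no comparison, held 1. The clearest row of elements was that of Isg15, with 3 overlapping matches (GAAAAGGAAA, GAAACCGAAA and GAAACAGAAA) from 78 to 57 bases before its start.

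Several members lie beside each other in the genome. Rsad2 and Cmpk2 stand head to head on chromosome 12, 12.8 kb apart. Ifit2, Ifit3, Ifit3b and Ifit1 form a row on chromosome 19, Gbp7, Gbp3 and Gbp2 one on chromosome 3, and Oas2 and Oas3 lie 3.2 kb apart on chromosome 5. Ifit3 and Ifit3b are close copies, as are members of the Oas and Gbp families, so the split of reads between them is uncertain. Exon bases are also shared with another annotated gene in Oasl1, Ifi35, Usp18, Dhx58 and Gbp2 (antisense) and in Rtp4, Herc6, Parp14, Gbp7, Igtp and Sp100 (same strand), and counts without strand cannot part them.

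The libraries were not equally clean or equally deep. Counts in genes ranged from 605376 in a WT library at 9 months to 18357762 in a Batf3KO library. At 9 months a list of 14 microglial genes summed to 53100 to 65100 CPM (each library's counts scaled to the same total, with TMM within each experiment) in WT and to 5420 to 11200 in IRF8KO. A list of 13 neutrophil genes summed to 0.486 to 2.43 CPM in WT, where 5 had any count and Camp, Ctsg, Elane, Lcn2, Ltf, Mmp8, Mpo and Ngp were at 0. In IRF8KO all 13 had counts and the sum was 59200 to 113000 CPM. In 5xFAD the neutrophil sum was 0.364 to 2.08 CPM, with Ctsg, Elane, Lcn2 and S100a9 at 0, and in 5xFAD/IRF8KO it was 89400 to 171000. Monocyte genes (list of 8) summed to 8.14 to 12.6 CPM in WT, with Chil3, Ly6c2, Plac8 and Vcan at 0, and to 6010 to 18900 in IRF8KO. The neutrophil sums at 3 months were 7890 to 58300 CPM in WT, where only Elane was at 0, and 69900 to 179000 in IRF8KO. Border macrophage genes (list of 8) were between 8.53 and 13.6 CPM in WT mice of 9 months and between 783.0 and 910.0 in IRF8KO mice, where Cbr2 was at 0. At 3 months the ranges were 42.5 to 177.0 and 855.0 to 1320.0. At 9 months red blood cell genes summed to 0.154 to 38.9 CPM in WT and to 25700 to 198000 in IRF8KO, the most in replicate 2. Oligodendrocyte genes were at 201 to 214 CPM in WT and 6640 to 12000 in IRF8KO, and neuronal genes at 2.15 to 4.37 and 650.0 to 2780. In younger mice these last 3 lists were not higher in IRF8KO, with red blood cell genes at 31900 to 121000 CPM in WT and 8070 to 87500 in IRF8KO. The share of deposited counts lying in genes was 74.67 to 77.35% for WT libraries of 9 months, against 48.63 to 53.44% for IRF8KO libraries. The part of these genes and of RNA quality in the results of germline IRF8KO mice was not tested. Fewer cells of a type and less RNA per cell cannot be told apart in such bulk samples. Although all mice were labelled female, 13 libraries held Y-linked transcripts without Xist, among them all 3 WT libraries at 9 months, and 3 held both.

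Irf8 itself was measured in every library. It stood at 305, 227, 213 and 236 CPM in WT and 90.3, 90.3, 153 and 119 in IRF8KO at 3 months. At 9 months it stood at 681, 648 and 586 CPM in WT and 141, 16.7 and 75.9 in IRF8KO. In 5xFAD mice Irf8 was 740, 600 and 565 CPM, and in 5xFAD/IRF8KO mice 99.8, 79.9 and 95.6. Every library without Irf8 was lower than every control library of its age, and some reads remained. Batf3KO libraries held 974, 930 and 1020 CPM of Irf8, and their WT libraries 1100, 1040 and 949. The deleted exons are not given in the sources used here. In the conditional experiment Irf8 was 1100, 1240 and 972 CPM in flox and 1130, 444, 367 and 521 in Cre, so the library labelled Cre replicate 1 went against its label. Results of that experiment are given with and without it.

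**Figure D1:**
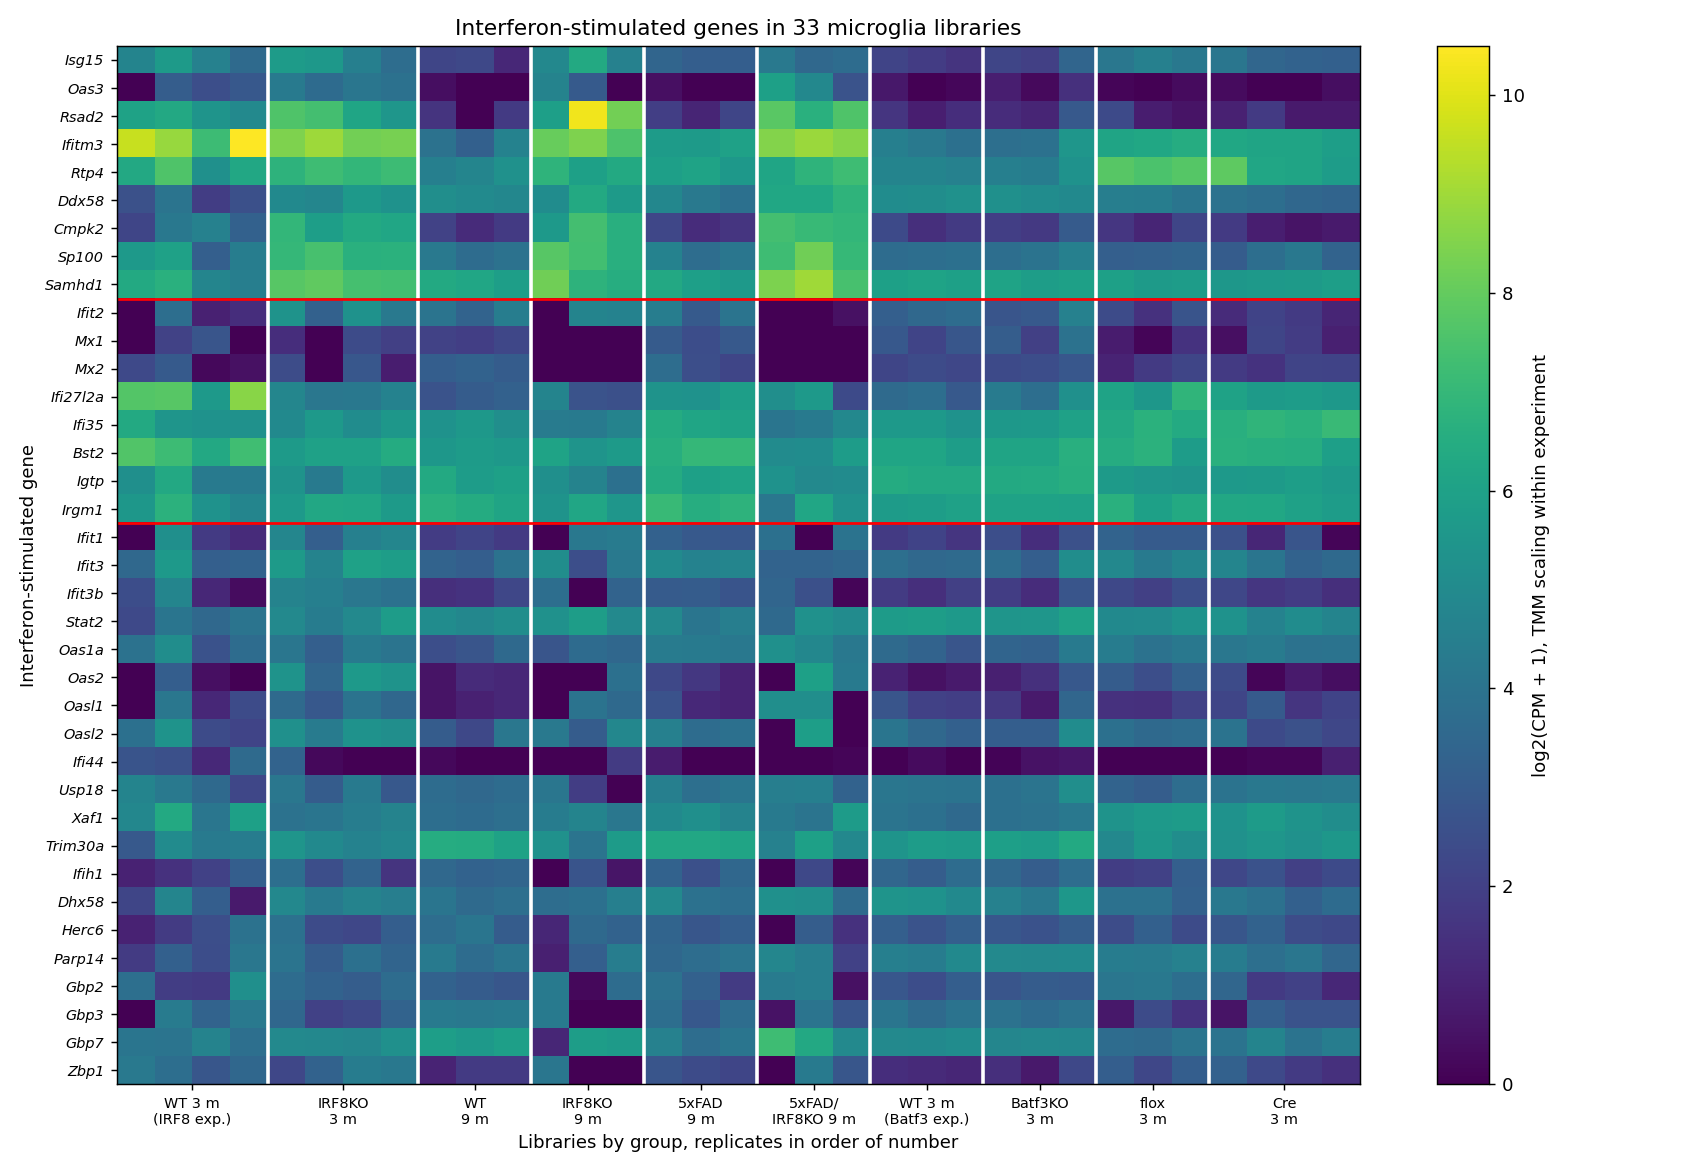
Level of each of the 37 genes (rows) in each of the 33 libraries (columns, by group), as log2 of CPM plus 1 with TMM scaling within each experiment, so that colours compare libraries of 1 experiment. Red lines part the 9 members that were higher without Irf8 (top), the 8 that were lower (middle) and the other 20. Rsad2, Cmpk2, Ifitm3 and Sp100 brighten in the columns without Irf8 at 9 months, and Mx1 and Mx2 are dark there.

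At 9 months the members split in both directions when Irf8 was absent. In IRF8KO against WT, 36 members were tested (Ifi44 fell outside the low-count filter) and 9 were called, or 25%, against 28.3% of all 14604 genes. Isg15, Rsad2, Ifitm3, Rtp4, Cmpk2 and Sp100 rose, or 6 members where 19.6% of all genes did, and Mx1, Mx2 and Igtp fell, where 8.68% of all genes did. The median log2 change was 0.609 over the members and 0.248 over all genes. In 5xFAD/IRF8KO against 5xFAD, 13 of 36 were called (36.1%, against 27.8% of all genes), with 7 higher (18% of all genes) and 6 lower (9.72%), and the medians were 0.337 and 0.235. These 2 comparisons share no library but share the fit of 12 libraries, and 6 members were called in both in the same direction (16.7%, against 18% of all genes), namely Rsad2, Ifitm3, Cmpk2, Sp100, Mx1 and Mx2. At 3 months all 37 members were tested and 4 were called (10.8%, against 7.39% of 13121 genes). Cmpk2, Ddx58 and Samhd1 rose and Ifi27l2a fell, against 4.15% and 3.24% of all genes. The count at 3 months rested on single libraries: it was 11 without WT replicate 2, 1 without IRF8KO replicate 1, and 2 without WT replicate 4, IRF8KO replicate 3 or IRF8KO replicate 4. With all libraries, the share of members called was near that of all genes in each of these comparisons. That does not extend to the fit at 3 months without WT replicate 2, which called 11 members. That library was the highest WT library in 22 of 34 members with a mean of 5 CPM or more. Over all genes, fits at 3 months that left out 1 replicate called 305 to 1128, beside 970 with all libraries.

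**Figure D2:**
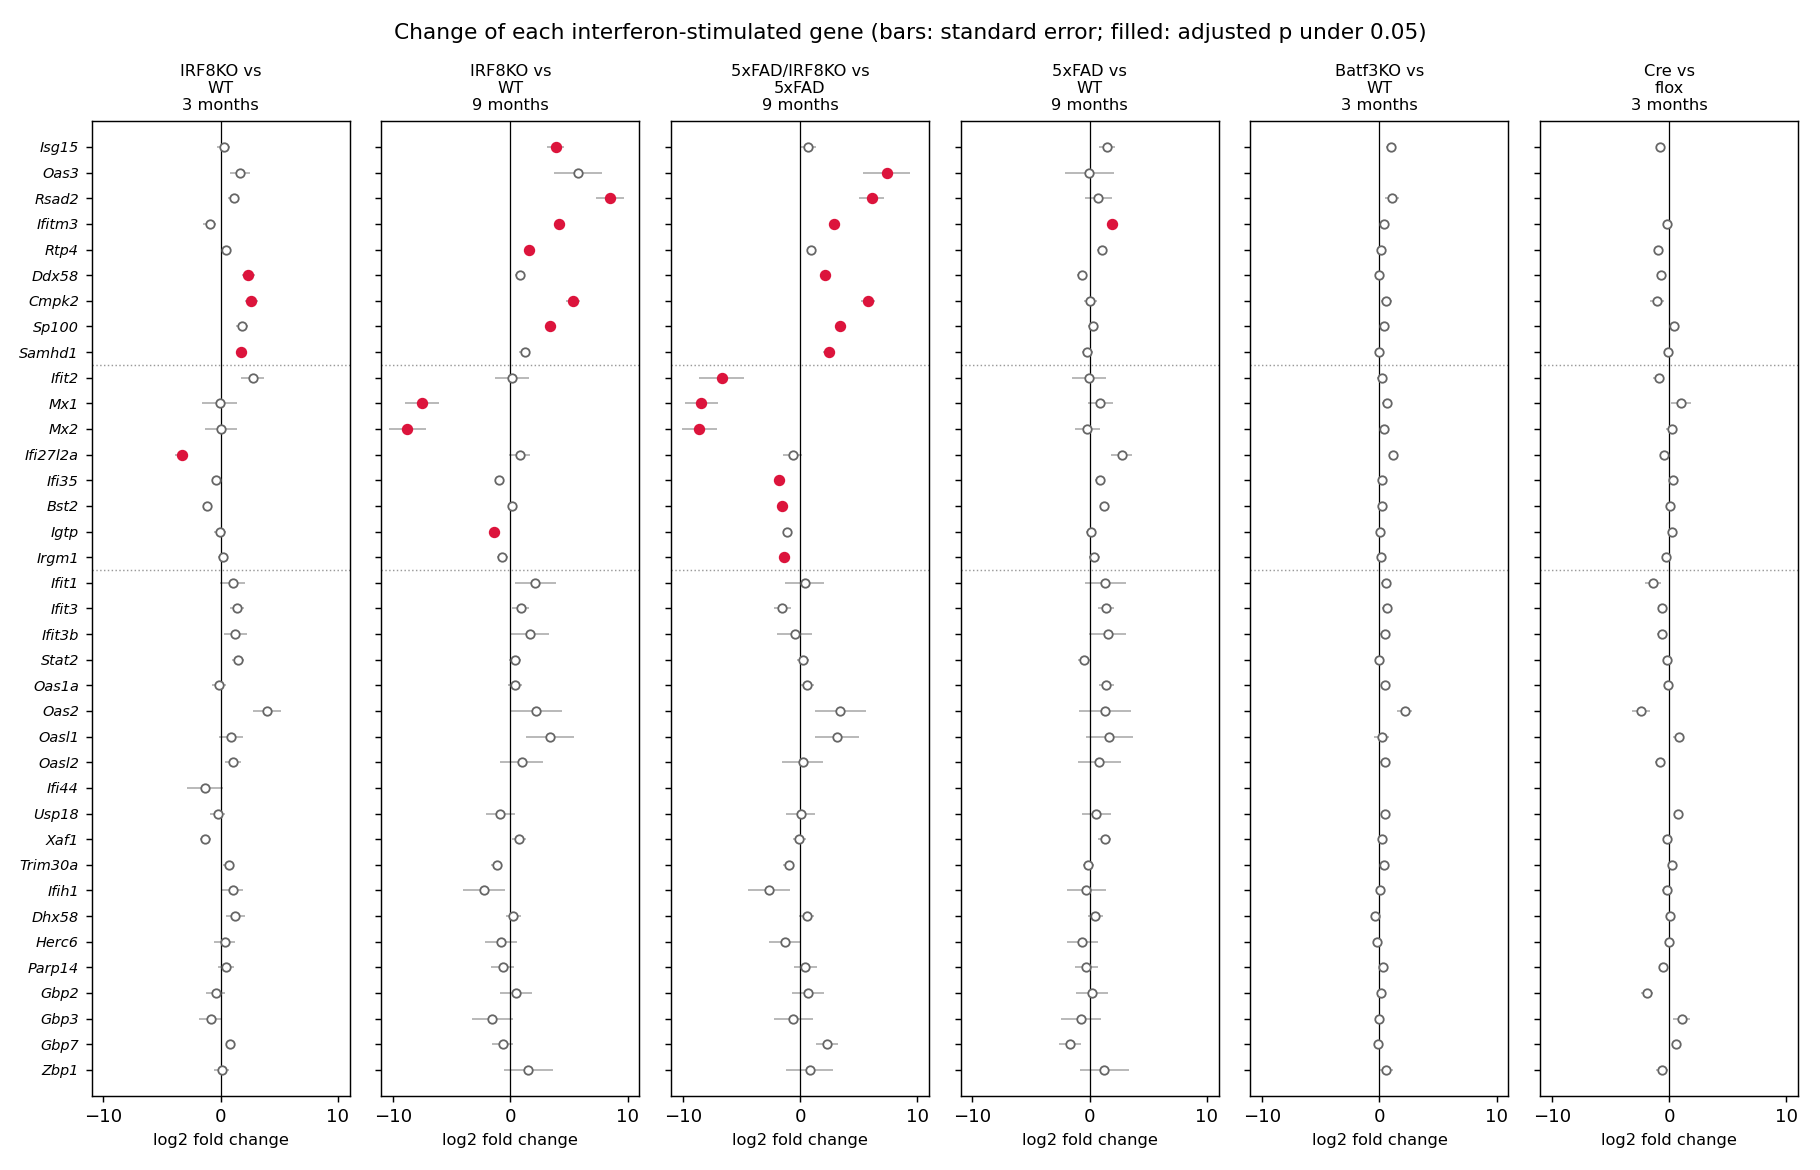
Log2 fold change of each gene in 6 comparisons, with its standard error as a bar. Filled points passed an adjusted p under 0.05 and a missing point fell outside the low-count filter. Filled points lie in the columns of germline IRF8KO mice, with Ifitm3 alone in 5xFAD against WT and none for Batf3KO or Cre.

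Rsad2 encodes viperin, which makes a chain-terminating nucleotide, and Cmpk2 is a mitochondrial nucleotide kinase that supplies its substrate. Rsad2 stood at 2, 0 and 2.43 CPM in WT and 59.5, 1230 and 303 in IRF8KO at 9 months. It stood at 2.91, 1.13 and 3.62 CPM in 5xFAD and 221, 101 and 193 in 5xFAD/IRF8KO. No library without Irf8 came near those with it, although IRF8KO replicate 2, the library with the most red blood cell transcripts, was far above the other two. The log2 change was 8.48 ± 1.21 (SE), adjusted p = 0.000303 in WT mice, and 6.12 ± 1.05 (SE), adjusted p = 0.00119 in 5xFAD mice. Over 13 alternatives each, the first lay between 6.84 and 9.30 and held every time, and the second lay between 3.73 and 6.38 and was lost once, with a Y-linked covariate (adjusted p = 0.163).

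Cmpk2, its neighbour, stood at 3.22, 1.46 and 2.43 CPM in WT and 48.4, 165 and 98.3 in IRF8KO at 9 months, and at 3.73, 1.51 and 2.07 in 5xFAD and 164, 134 and 122 in 5xFAD/IRF8KO. The log2 changes were 5.38 ± 0.59 (SE), adjusted p = 4.32e-05 and 5.78 ± 0.58 (SE), adjusted p = 2.34e-05, and both held in 13 of 13 alternatives. Younger mice, at 3 months, had 3.54, 17.3, 23.3 and 8.69 CPM of Cmpk2 in WT and 124, 58.7, 82.7 and 72.3 in IRF8KO, a log2 change of 2.64 ± 0.51 (SE), adjusted p = 0.011. Cmpk2 was the only member called in all 3 comparisons of germline IRF8KO mice, and the groups did not overlap in any of them. The share of all genes called in all 3 was not computed. Single IRF8KO libraries lay above every WT library for 24.3 to 27.2% of genes with a mean of 5 CPM or more at 3 months. At 9 months the share was 45.0 to 47.4%, and for 5xFAD/IRF8KO libraries above every 5xFAD library it was 43.3 to 46.8%. Rsad2 at 3 months was 65.3, 80.4, 41.7 and 29.8 CPM in WT and 192, 162, 71.8 and 45.3 in IRF8KO, and the groups overlapped (log2 change 1.12 ± 0.48 (SE), adjusted p = 0.177).

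Samhd1, a hydrolase that depletes the deoxynucleotides viruses need, was 82.5, 99.3, 26 and 21.5 CPM in WT and 217, 240, 166 and 159 in IRF8KO at 3 months. Each IRF8KO library exceeded each WT library, and the log2 change was 1.78 ± 0.48 (SE), adjusted p = 0.0423, a call kept in 6 of 14 alternatives. In 5xFAD it was 79, 59.5 and 49.7 CPM, and in 5xFAD/IRF8KO 346, 504 and 172 (2.44 ± 0.49 (SE), adjusted p = 0.00331, kept in 13 of 13). The change in IRF8KO against WT at 9 months was 1.21 ± 0.47 (SE), adjusted p = 0.0746, with IRF8KO replicate 1 at 299 CPM and the others at 110 and 91.3.

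Ifitm3, which blocks the fusion of viruses in endosomes, was 14.6, 8.26 and 24.3 CPM in WT and 262, 351 and 186 in IRF8KO at 9 months. Libraries of 5xFAD mice held 53.3, 52.2 and 63.1 CPM, and those of 5xFAD/IRF8KO mice 372, 476 and 383. The 4 groups did not overlap, in the order WT, 5xFAD, IRF8KO and 5xFAD/IRF8KO, although the step between the last 2 was not called (log2 change 0.62 ± 0.33 (SE), adjusted p = 0.486). Its log2 change without Irf8 was 4.14 ± 0.39 (SE), adjusted p = 1.6e-05 in WT mice and 2.87 ± 0.36 (SE), adjusted p = 0.000117 in 5xFAD mice. Bst2, the tetherin that holds budding virus at the cell surface, fell in the 5xFAD background, from 94.7, 127 and 126 CPM in 5xFAD to 32.2, 33.2 and 54.5 in 5xFAD/IRF8KO (-1.54 ± 0.33 (SE), adjusted p = 0.00483). In IRF8KO against WT its change was 0.14 ± 0.33 (SE), adjusted p = 0.784. The interaction for Bst2, which tests the difference between these effects, was -1.68 ± 0.46 (SE), adjusted p = 0.119, so the effects were not shown to differ.

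The RNA sensors did not move as one. Ddx58 encodes RIG-I, Ifih1 encodes MDA5, Dhx58 encodes LGP2, and Zbp1 binds nucleic acid in the Z form. Ddx58 was 5.06, 15.6, 2.77 and 4.95 CPM in WT and 30.6, 27.4, 50.5 and 40.1 in IRF8KO at 3 months, with no overlap (2.37 ± 0.57 (SE), adjusted p = 0.0274, kept in 9 of 14 alternatives). It was 27.8, 18.1 and 13.5 CPM in 5xFAD and 74.2, 75.6 and 111 in 5xFAD/IRF8KO, again with no overlap (2.12 ± 0.43 (SE), adjusted p = 0.00342). WT mice at 9 months held 35, 31.1 and 28 CPM and IRF8KO mice 33.7, 81 and 52, where WT replicate 1 lay above IRF8KO replicate 1 and the change was 0.82 ± 0.42 (SE), adjusted p = 0.163. Ifih1, Dhx58 and Zbp1 were not called in any comparison with all libraries. Ifih1 had 0 counts in 1 IRF8KO and 1 5xFAD/IRF8KO library at 9 months, and its log2 changes there were -2.23 ± 1.77 and -2.61 ± 1.78.

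Among the oligoadenylate synthetases, which make the messenger that activates RNase L, Oas3 was nearly silent with Irf8 at 9 months, with 2 counts over all 3 WT libraries and 4 over the 5xFAD libraries. IRF8KO libraries held 24.6, 6.74 and 0 CPM, a ratio to WT of 49.4 with an exact 95% counting interval of 13.5 to 410.0, but replicate 3 was at 0 and the test gave adjusted p = 0.0529. In 5xFAD/IRF8KO it was 61.1, 28.4 and 5.38 CPM (7.38 ± 2.02 (SE), adjusted p = 0.0173, kept in 9 of 13 alternatives). Oas3 was not silent in younger WT mice, whose libraries held 0, 7.54, 4.82 and 6.42 CPM beside 18.8, 11.7, 16.5 and 14 in IRF8KO (1.66 ± 0.82 (SE), adjusted p = 0.249). Oas2 was 0, 7.91, 0.333 and 0 CPM in WT and 41.4, 9.91, 48.4 and 41.5 in IRF8KO at 3 months, without overlap, at 3.97 ± 1.19 (SE), adjusted p = 0.0613. Oas1a, Oas2, Oasl1 and Oasl2 were not called in any comparison of IRF8KO with its control.

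The IFIT proteins bind foreign RNA, and of the 4 measured Ifit2 was the one called in a comparison of IRF8KO with its control. It was 20.7, 6.78 and 15.5 CPM in 5xFAD and 0, 0 and 0.371 in 5xFAD/IRF8KO, where 4 counts remained over 3 libraries (-6.67 ± 1.90 (SE), adjusted p = 0.021, kept in 9 of 13). IRF8KO mice of 9 months had 0, 25.3 and 24.2 CPM of Ifit2, so 2 libraries lay above all WT libraries (15.2, 9.23 and 20.7) and 1 had no count. The interaction for Ifit2 was -6.82 ± 2.31 (SE), adjusted p = 0.188. Ifit3 had log2 changes of 1.36 ± 0.60 at 3 months, 0.87 ± 0.71 at 9 months and -1.51 ± 0.71 in 5xFAD mice, none called.

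Mx1 and Mx2, dynamin-like GTPases that trap viral nucleocapsids, had no counts at all without Irf8 at 9 months. Laboratory strains such as C57BL/6 are known for defective Mx genes, and the annotation lists Mx2 as a polymorphic pseudogene, so these are transcript levels only. Mx1 was 3.22, 2.91 and 3.65 CPM in WT and 7.1, 4.52 and 6.73 in 5xFAD. Mx2 was 7.83, 8.74 and 7.29 CPM in WT and 12.4, 4.71 and 3.62 in 5xFAD. All 6 libraries without Irf8 were at 0 for both genes, and each had more counts in genes than every WT library. Genes with a count numbered 15781 to 18276 in IRF8KO and 15320 to 16420 in 5xFAD/IRF8KO. They numbered 12705 to 16677 in WT and 14323 to 19994 in 5xFAD. The part of depth and of the mixture of cells in these zeros was not tested. With 3 counts over the group as the floor, Mx1 was at least 24.0-fold lower in IRF8KO than in WT (adjusted p = 0.00637) and at least 68.1-fold lower in 5xFAD/IRF8KO than in 5xFAD (adjusted p = 0.00336). Mx2 was at least 58.5-fold lower (adjusted p = 0.00402) and at least 76.9-fold lower (adjusted p = 0.00359). These calls held in 13 of 13 alternatives each. The floors cover counting error only. Other members varied between 0 and higher levels among these libraries, such as Oasl2 at 0, 57.6 and 0 CPM in 5xFAD/IRF8KO. At 3 months both genes were low and scattered in both groups, with Mx1 at 0, 3.2, 5.76 and 0 CPM in WT and 1.57, 0, 4.3 and 2.93 in IRF8KO.

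**Figure D3:**
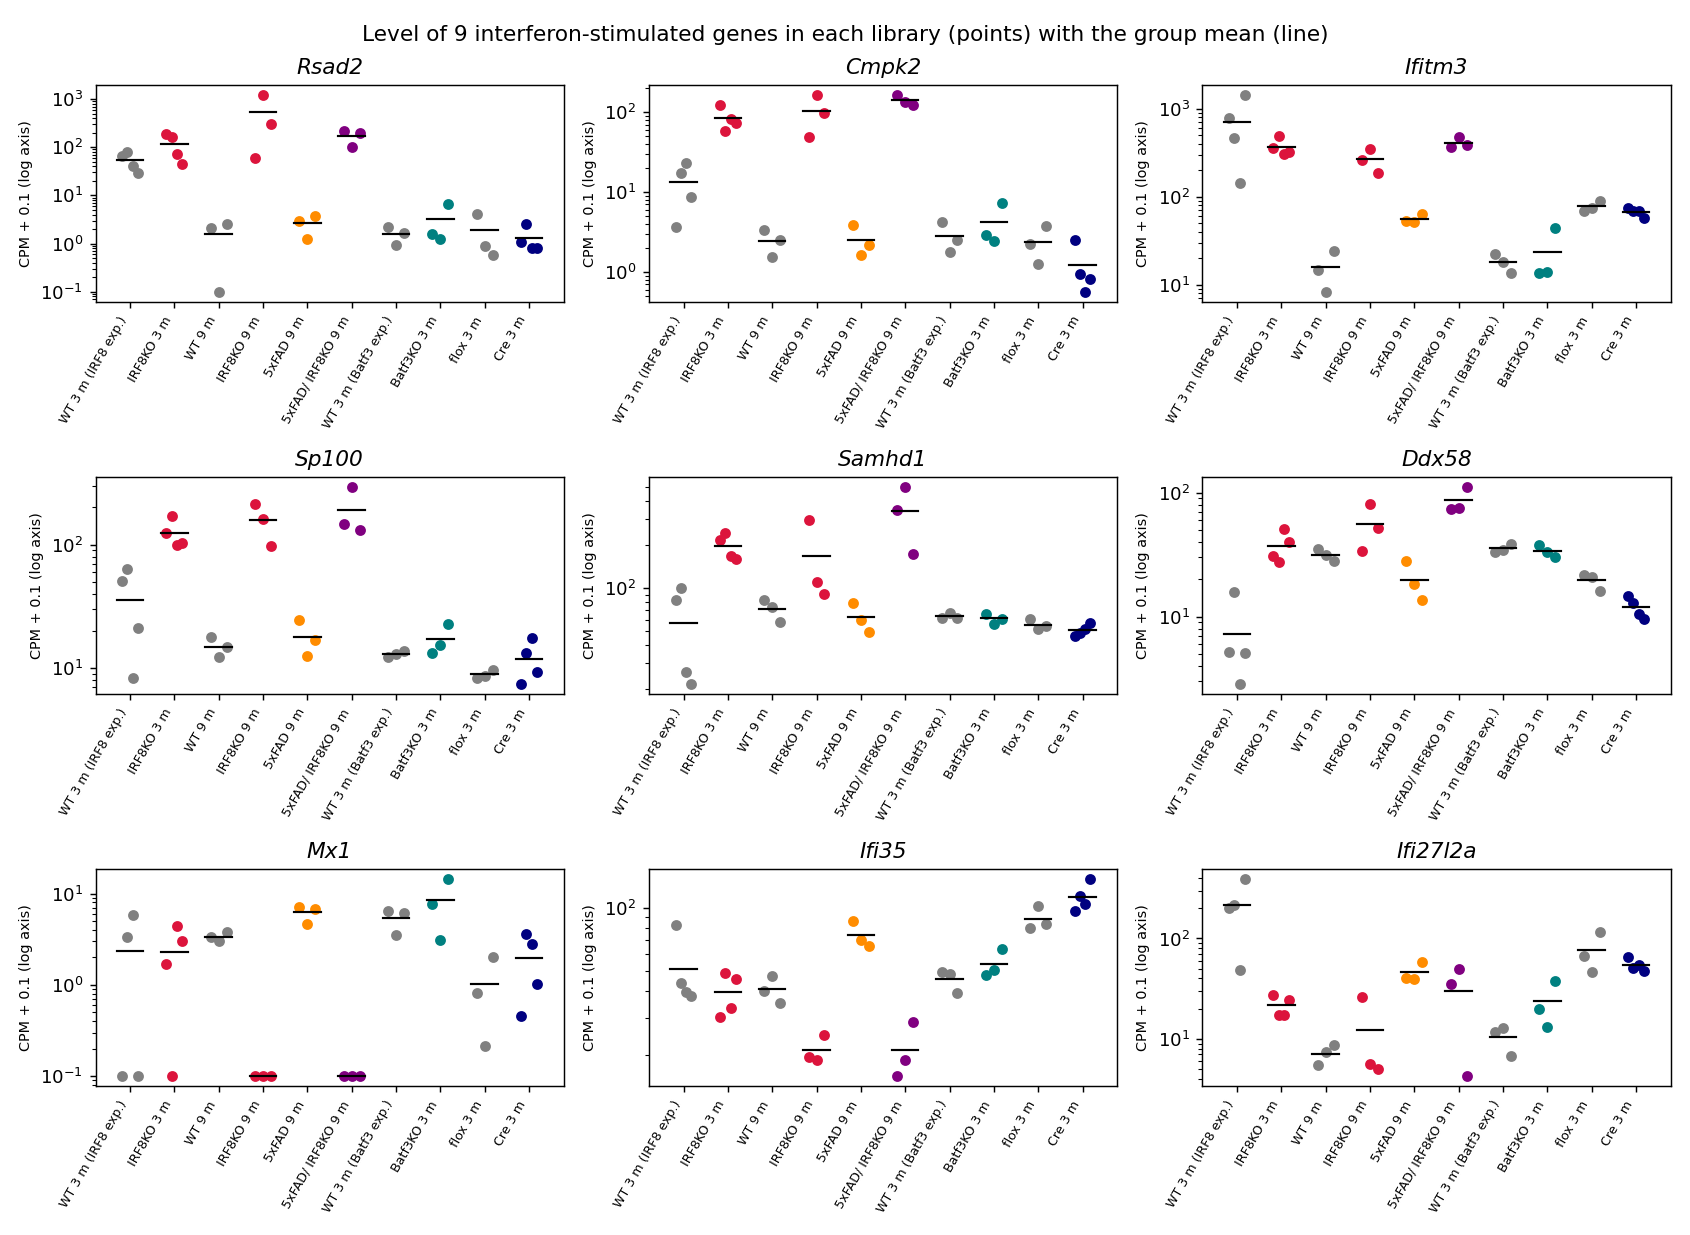
CPM plus 0.1 on a log axis for 9 genes in each library (points), with the mean of each group (line). At 9 months Rsad2 and Cmpk2 are high only in the 6 libraries without Irf8, Mx1 is at 0 in the 6 libraries without Irf8 at 9 months, and the WT libraries at 3 months of the IRF8KO experiment lie apart from other WT libraries for Ifitm3, Ifi27l2a and Rsad2.

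Isg15 is a ubiquitin-like tag, Herc6 its ligase in mice, and Usp18 the protease that removes it and restrains the receptor. Isg15 was 3.53, 3.88 and 1.22 CPM in WT and 28.6, 81.4 and 23.6 in IRF8KO at 9 months, with no overlap (3.87 ± 0.74 (SE), adjusted p = 0.00238, kept in 13 of 13). In 5xFAD it was 9.74, 7.73 and 7.76 CPM, and in 5xFAD/IRF8KO 17.7, 10.7 and 12.1 (0.68 ± 0.66 (SE), adjusted p = 0.484). The interaction was -3.18 ± 0.96 (SE), adjusted p = 0.15. Usp18 and Herc6 were not called in any comparison, and Usp18 spread from 0 to 16.6 CPM within IRF8KO at 9 months.

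The interferon-inducible GTPases act on vacuoles of intracellular pathogens, and those called were lower without Irf8. Igtp was 82.3, 55.4 and 60.8 CPM in WT and 36.6, 24.7 and 13.6 in IRF8KO at 9 months, with no overlap (-1.41 ± 0.40 (SE), adjusted p = 0.0214, kept in 10 of 13). Its exons share bases with Irgm2, as said. Irgm1 was 134, 92.1 and 108 CPM in 5xFAD and 17.1, 73.4 and 39 in 5xFAD/IRF8KO (-1.37 ± 0.46 (SE), adjusted p = 0.0447, kept in 6 of 13). The guanylate-binding proteins Gbp2, Gbp3 and Gbp7 were not called in germline IRF8KO mice. Gbp3 stood at 18.6, 0 and 0 CPM in IRF8KO at 9 months, so its 3 libraries did not agree among themselves.

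Other members also moved with Irf8. Sp100, a protein of nuclear bodies, was 17.7, 12.1 and 14.6 CPM in WT and 214, 160 and 97.7 in IRF8KO at 9 months (3.39 ± 0.45 (SE), adjusted p = 0.000166). It was 24.2, 12.4 and 16.6 CPM in 5xFAD and 148, 293 and 130 in 5xFAD/IRF8KO (3.42 ± 0.44 (SE), adjusted p = 0.000146). Both gaps were free of overlap and held in 13 of 13 alternatives. Rtp4, a receptor chaperone, was 22.1, 26.7 and 38.9 CPM in WT and 111, 62.2 and 83.1 in IRF8KO (1.57 ± 0.38 (SE), adjusted p = 0.00911, kept in 11 of 13). Ifi35 was 86.2, 70.3 and 65.7 CPM in 5xFAD and 15.7, 18.8 and 28.4 in 5xFAD/IRF8KO (-1.82 ± 0.38 (SE), adjusted p = 0.00426), and its change in IRF8KO against WT was -0.97 ± 0.38 (SE), adjusted p = 0.0742. Ifi27l2a, a small hydrophobic protein, was 202, 215, 48.3 and 390 CPM in WT and 27, 17.1, 17.3 and 24.5 in IRF8KO at 3 months. All IRF8KO libraries were lower (-3.32 ± 0.53 (SE), adjusted p = 0.00427), and the call held in 14 of 14 alternatives. Not called in any of the 12 comparisons were Stat2, a part of the factor that binds the response element, Trim30a, which restrains Toll-like receptor signalling, Parp14, an ADP-ribosyltransferase, Xaf1 and Ifi44.

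Per kilobase of exon, the order of the members was different with and without Irf8. In WT at 9 months Bst2 was highest at 53.9 ± 4.61 CPM per kb (SD, n = 3), followed by Igtp at 32.7 ± 7.02, Ifi35 at 23.7 ± 3.43 and Ifitm3 at 23.2 ± 11.9, the last 3 within their spread. In IRF8KO Ifitm3 was first at 392.0 ± 122.0 CPM per kb and Rsad2 was next at 122.0 ± 143.0, whose spread exceeded its mean. Bst2 stood at 59.7 ± 14.4 and Isg15 at 58.9 ± 42.3 CPM per kb, within their spread.

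A direct comparison of IRF8KO with 5xFAD mice at 9 months, which shares libraries with the comparisons above, called 13 of 36 members (36.1%, against 29.5% of all genes). It called 8 without 5xFAD replicate 2 or without replicate 3. Over all genes it called 4311 with all libraries and 2437 without 5xFAD replicate 2. The 8 with the smallest adjusted p had log2 changes of 5.35 ± 0.57 (Cmpk2), 3.14 ± 0.43 (Sp100), 7.75 ± 1.12 (Rsad2), 2.25 ± 0.35 (Ifitm3), -1.82 ± 0.38 (Ifi35) and -1.53 ± 0.40 (Igtp), while Mx1 and Mx2 were at least 45.1-fold and 50.9-fold lower in IRF8KO. Isg15, Oas3, Ddx58 and Samhd1 were also higher in IRF8KO and Bst2 lower, with changes from -1.10 (Bst2) to 5.79 (Oas3).

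The effect of losing Irf8 was tested against age. In IRF8KO at 9 months minus IRF8KO at 3 months, 6 of 37 members were called (16.2%, against 24% of all genes). The difference was 7.42 ± 1.26 (SE), adjusted p = 0.000448 for Rsad2, 5.17 ± 0.82 (SE), adjusted p = 0.000257 for Ifitm3 and 3.62 ± 0.95 (SE), adjusted p = 0.0106 for Isg15. These 3 had higher CPM in WT libraries at 3 months than at 9 months, on scales set within each experiment. Ifitm3, for example, was 791, 462, 145 and 1440 CPM in WT and 354, 495, 307 and 321 in IRF8KO at 3 months. For Ifi27l2a the difference was 4.23 ± 0.92 (SE), adjusted p = 0.00309, since it fell at 3 months and at 9 months stood at 5.37, 7.28 and 8.51 CPM in WT and 25.8, 5.52 and 4.87 in IRF8KO. Cmpk2 differed by 2.79 ± 0.81 (SE), adjusted p = 0.0197 and Mx2 by -8.67 ± 2.59 (SE), adjusted p = 0.0243, the latter fitted on libraries at 0. The neutrophil sums of the WT libraries differed between the ages as given above. Age and experiment cannot be told apart here, because each age was a separate set of libraries.

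In 5xFAD against WT, Ifitm3 was higher (1.90 ± 0.36 (SE), adjusted p = 0.0251), or 1 of 36 members (2.78%, against 1.99% of all genes called and 1.81% called higher). The call was lost in each of the 6 fits that left out 1 library (adjusted p up to 0.211), while the change stayed between 1.59 and 2.25 over 13 alternatives. The median member change was 0.522, against 0.002 over all genes, and 24 of 36 changes were positive. Of 27 members with a mean of 5 CPM or more, 5xFAD replicate 1 was above all WT libraries for 18 and below for 4. Replicates 2 and 3 were above for 10 and 11, and below for 8 and 7. Of all genes at that level 49.5%, 40.6% and 35.7% were above in replicates 1, 2 and 3, and 23.0%, 36.8% and 43.6% below. The median member log2 ratio to the WT mean was 0.69, 0.07 and 0.09, so this shift was largest in replicate 1. Members with an unadjusted p under 0.05 numbered 7 (11.2% of all genes had one), and all 7 were positive, namely Ifitm3, Oas1a, Ifi27l2a, Ifi35, Bst2, Rtp4 and Xaf1. Ifi27l2a was 5.37, 7.28 and 8.51 CPM in WT and 40.6, 39.2 and 58 in 5xFAD, without overlap, and its adjusted p was 0.199. Xaf1, an antagonist of an apoptosis inhibitor, was 12.9, 11.7 and 13.4 CPM in WT and 30.9, 36.4 and 24.8 in 5xFAD (adjusted p = 0.419).

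When the 6 WT and 5xFAD libraries were fitted alone, which changed the estimate of the spread, the filter and the scaling together, 16 of 32 members tested were called, or 50%, against 43.5% of all genes, with 13 higher and 3 lower. Those higher were Ifi27l2a (2.78 ± 0.31), Ifitm3 (1.91 ± 0.29), Ifit3b (1.69 ± 0.46), Oas1a (1.57 ± 0.33), Zbp1 (1.46 ± 0.53), Ifit3 (1.43 ± 0.27), Isg15 (1.31 ± 0.39), Ifit1, Xaf1, Bst2, Rtp4, Oasl2 and Ifi35. The lower ones were Gbp7 (-1.76 ± 0.23), Gbp3 (-0.88 ± 0.29) and Ddx58 (-0.73 ± 0.23). Of all genes 20.8% were higher and 22.7% lower in that fit. WT libraries at 9 months were shallower, at 605376 to 5757466 counts against 1928739 to 11922037 in 5xFAD, all 3 held Y-linked transcripts, and 2 of the 3 libraries of 5xFAD held Xist without them. The part of depth and sex in these changes was not tested beyond a fit with a Y-linked covariate, in which 0 members were called. In that fit 3 of all genes were called, where the main fit called 290, so its 0 says little about the members. Marker sums of blood cells were low in both groups, with monocyte genes at 8.14 to 12.6 CPM in WT and 15.6 to 21.6 in 5xFAD. Border macrophage genes were also higher, at 8.53 to 13.6 CPM in WT and 15.0 to 35.8 in 5xFAD. So were microglial genes, at 53100 to 65100 and 67100 to 77700, and oligodendrocyte and astrocyte genes. For the other cell type lists the ranges overlapped. The part of these lists in the changes was not tested.

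Without Irf8, 5xFAD called none. In 5xFAD/IRF8KO against IRF8KO, 0 of 36 members passed edgeR's test (0.164% of all genes did) and 4 had an unadjusted p under 0.05 (12.7% of all genes). There DESeq2 called 3 members and 852 of all genes. The interaction of 5xFAD with IRF8KO likewise called 0 of 36 (0.438% of all genes), with 7 at an unadjusted p under 0.05 (14.7% of all genes). For it DESeq2 called 3 members and 912 of all genes. Ifitm3 had an interaction of -1.27 ± 0.49 (SE), adjusted p = 0.245, so the 5xFAD effect with and without Irf8 was not shown to differ.

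Loss of Batf3 called 0 of 35 members (Oas3 and Ifi44 fell outside the filter), against 3.83% of 13128 genes, although Batf3 itself fell from 23.5, 26.9 and 23.5 CPM in WT to 0.524, 0.44 and 0.5 in Batf3KO (-5.64 ± 0.23 (SE), adjusted p = 1.58e-08). An unadjusted p under 0.05 was reached by 18.4% of all genes and by 4 members, Isg15, Oas2, Ifi27l2a and Trim30a. DESeq2 called 1 member and 814 of all genes. The median change was 0.298, against 0.002 over all genes, with 28 of 35 positive. This shift came with 1 library. Among 26 members with a mean of 5 CPM or more, Batf3KO replicate 3 was above all 3 WT libraries for 19, while replicates 1 and 2 were above for 4 each. Of all genes at that level 29.9%, 30.5% and 31.0% were above in replicates 3, 1 and 2.

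The genes raised in that library span the list. Ifit3 was 13.3, 10.6 and 11.2 CPM in WT and 12.4, 7.73 and 34.8 in Batf3KO. Ifitm3 was 22.4, 18.1 and 13.7 CPM in WT and 13.4, 13.9 and 44.1 in Batf3KO. Isg15 was 3.47, 2.68 and 1.97 CPM in WT and 3.53, 2.95 and 9.83 in Batf3KO, and Oasl2 was 15.9, 10.8 and 8.33 and 7.79, 7.79 and 33. In each case the value of replicate 3 stood alone above the other 5 libraries. Irf7, an interferon-induced factor outside the list, was 22.4, 16.9 and 15.4 CPM in WT and 18.8, 14.6 and 51 in Batf3KO. Replicate 3 was also the only library of this experiment with counts of interferon genes, 5 for Ifnb1 and 1 for Ifnl3. Marker sums in replicate 3 were the highest of the Batf3KO libraries for neutrophil (5.22 CPM against 5.1 and 4.89), monocyte (9.55 against 6.15 and 7.23) and border macrophage genes (15.3 against 9.5 and 10.2). They were also highest for red blood cell (103.0 against 63.0 and 18.2) and oligodendrocyte genes (439.0 against 378.0 and 363.0), and slightly for microglial genes. Other lists went the other way. Replicate 3 was the lowest Batf3KO library for lymphocyte (0.278 CPM against 0.524 and 0.377), endothelial (39.2 against 45.6 and 44.1) and dendritic cell genes. For neuronal and astrocyte genes it lay between replicates 1 and 2. In the WT libraries monocyte genes summed to 6.32 to 7.79 CPM, border macrophage genes to 10.7 to 16.9 and red blood cell genes to 102.0 to 217.0. Their part in the shift was not tested. Because replicate 3 was singled out by its high members, the fit without it restates the shift and is not a separate test. In that fit the median member change was -0.05, against 0 over all genes, and 19 of 35 changes were negative. Only Dhx58 was called (-0.88 ± 0.19 (SE), adjusted p = 0.0243), or 2.86% against 3.24% of all genes.

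**Figure D4:**
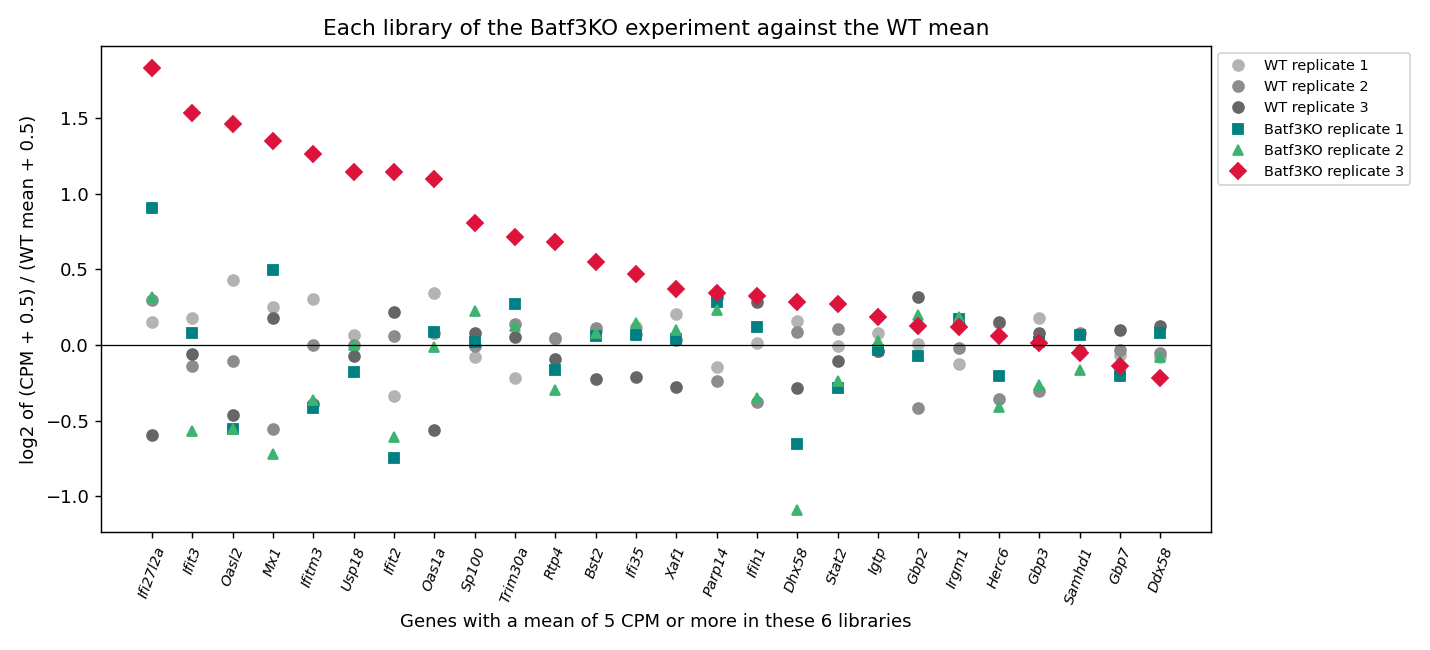
Each library of the Batf3KO experiment as log2 of its CPM plus 0.5 over the WT mean plus 0.5, for the 26 members with a mean of 5 CPM or more, ordered by replicate 3. Batf3KO replicate 3 (diamonds) lies above the WT libraries for 19 members, and replicates 1 and 2 lie above them for 4 each.

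The IRF8KO and Batf3KO effects at 3 months differed for 2 of 37 members (5.41%, against 3.22% of all genes). They come from separate experiments, so the gene removed and the experiment cannot be told apart. The difference was -4.39 ± 0.76 (SE), adjusted p = 0.00545 for Ifi27l2a, which was 11.5, 12.8 and 6.67 CPM in WT and 19.8, 13 and 38 in Batf3KO, and 2.56 ± 0.65 (SE), adjusted p = 0.0439 for Ddx58, kept in 7 of 19 alternatives. The count was 5 without WT replicate 2 of the IRF8KO experiment, and 1 without any one of 10 other libraries. Over all genes, fits that left out 1 replicate called 154 to 1091, beside 529 with all libraries. Batf3 was itself absent from IRF8KO libraries at 9 months, with 0 counts in all 6 libraries without Irf8, and in the conditional experiment it was 4.32, 4.57 and 1.93 CPM in flox and 1.32, 34.7, 67.6 and 47.5 in Cre.

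In the conditional knockout, 0 of 34 members passed with all 7 libraries, as did 0 of 15512 genes (0%). An unadjusted p under 0.05 was reached by 7 members and 9.07% of genes, and DESeq2 called 1 member and 160 of all genes. Oas3, Rsad2 and Ifi44 fell outside the filter. Without the library labelled Cre replicate 1, in which Irf8 was not reduced, Irf8 fell (-1.32 ± 0.19 (SE), adjusted p = 5.81e-05) and 7 of 33 members were called, or 21.2%, against 6.24% of 15264 genes. All 7 were lower in Cre, a direction in which 2.5% of genes were called. The median member change was -0.17, against -0.01 over all genes, and 23 of 33 changes were negative.

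Those 7 were Gbp2, Oas2, Rtp4, Oasl2, Isg15, Ifit3 and Ddx58. Gbp2 was 16.5, 17.5 and 12.9 CPM in flox and 10.1, 2.45, 3.03 and 1.22 in Cre (-2.81 ± 0.34 (SE), adjusted p = 7.86e-06 without replicate 1). Oas2 was 7.19, 4.8 and 8.67 CPM in flox and 4.2, 0.106, 0.7 and 0.306 in Cre (-4.20 ± 0.56 (SE), adjusted p = 2.78e-05). Rtp4 was 218, 185 and 208 CPM in flox and 236, 74, 68.1 and 54.3 in Cre (-1.64 ± 0.17 (SE), adjusted p = 1.88e-06). For each of these the first Cre value lies nearer to flox than to the other Cre libraries. Oasl2 changed by -1.51 ± 0.29 (SE), adjusted p = 0.0016, Isg15 by -1.08 ± 0.24 (SE), adjusted p = 0.00656, Ifit3 by -1.03 ± 0.25 (SE), adjusted p = 0.0139 and Ddx58 by -0.84 ± 0.23 (SE), adjusted p = 0.0337. Mx1, Mx2 and Cmpk2, called in germline IRF8KO mice at 9 months, were not called here, with Cmpk2 at 2.16, 1.14 and 3.61 CPM in flox and 2.4, 0.851, 0.466 and 0.714 in Cre. A list of 8 border macrophage genes moved in the same libraries. It summed to 129 to 162 CPM in flox, 200 in Cre replicate 1 and 7 to 13.7 in Cre replicates 2 to 4, with all 8 detected in both groups. Its part in the fall of these members was not tested. Neutrophil genes summed to 17.4 to 118.0 CPM in flox and 0.212 to 89.0 in Cre.

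**Figure D5:**
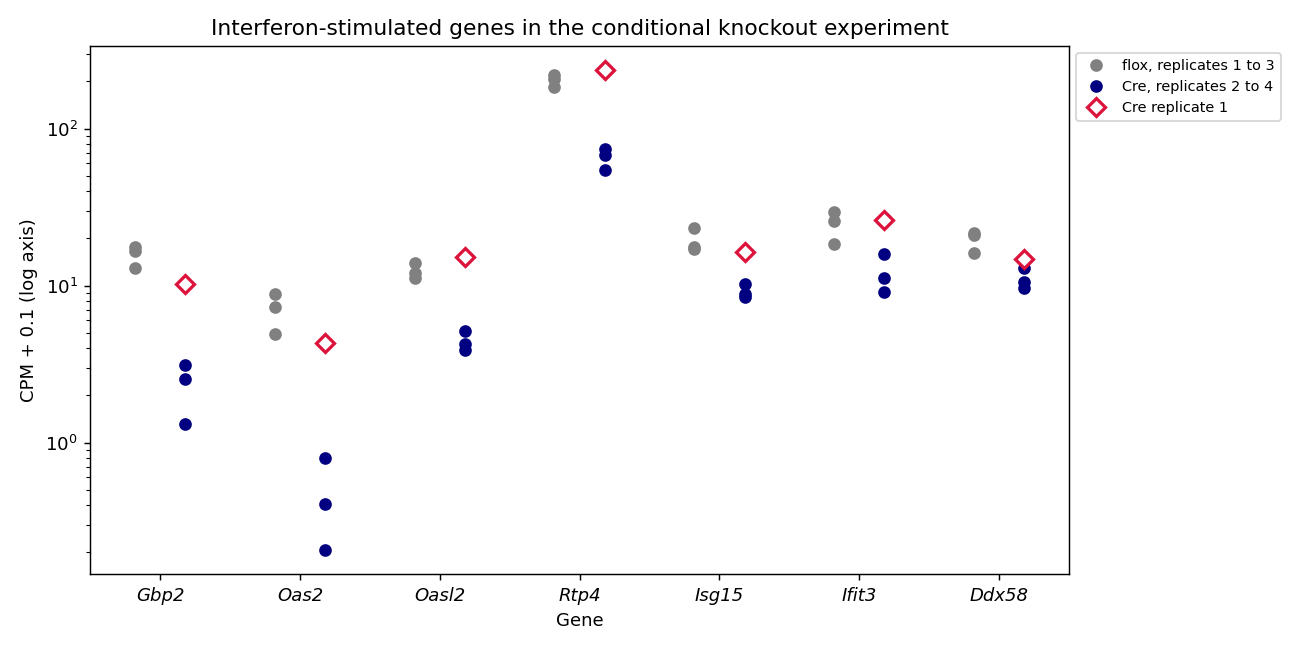
CPM plus 0.1 on a log axis for the 7 members called lower in Cre without replicate 1, in flox (grey) and Cre (blue) libraries. Cre replicate 1 (open diamonds) lies nearer to flox than to the other Cre libraries for most of the genes, and Cre replicates 2 to 4 lie below every flox library for each gene. The genes were picked by the call without replicate 1, so these patterns are partly set by that choice.

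The effects measured in the germline and conditional experiments differed for some members. The kind of Irf8 loss and the experiment cannot be told apart here, and the fit with all libraries held Cre replicate 1, whose Irf8 was not reduced. The Cre effect minus the IRF8KO effect at 3 months was called for 4 of 37 members (10.8%, against 7.04% of all genes). It was -3.02 ± 0.64 (SE), adjusted p = 0.00983 for Ddx58, 2.90 ± 0.63 (SE), adjusted p = 0.0109 for Ifi27l2a, -3.57 ± 0.82 (SE), adjusted p = 0.0147 for Cmpk2 and -6.26 ± 1.64 (SE), adjusted p = 0.0282 for Oas2, the last kept in 10 of 20 alternatives. The count was 10 without WT replicate 2 and 2 without flox replicate 3. Over all genes, fits that left out 1 replicate called 471 to 1780, beside 1223 with all libraries. Ddx58 thus rose in germline IRF8KO mice at 3 months and fell in Cre mice without replicate 1. Without that library the difference was -3.13 ± 0.70 (SE), adjusted p = 0.012 for Ddx58 and -4.24 ± 0.81 (SE), adjusted p = 0.00462 for Cmpk2, and Rtp4 was added (-2.01 ± 0.54 (SE), adjusted p = 0.0327), which made 5 of 37 (13.5%, against 6.63% of all genes). Germline IRF8KO libraries held neutrophil genes at 69900 to 179000 CPM at 3 months, and Cre libraries at most 89.0.

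Some libraries stood apart from their group over the whole list. Departure was measured as the median over members with a mean of 5 CPM or more of log2 CPM minus the group's median. In groups of 4 libraries, WT replicate 2 at 3 months in the IRF8KO experiment had the largest departure, at 0.84. It held the highest value of its group in 22 of 34 members. The 4 WT replicates, in order, held 10.6, 48.2, 8.09 and 8.83 CPM of Ifit3 and 13.7, 41.5, 4.21 and 3.48 of Oasl2. Without that library 11 members were called in IRF8KO against WT at 3 months, where 4 were called with it. Since the library was singled out by high values of these same members, the added calls are no separate evidence. Batf3KO replicate 3 departed by 0.46 and was highest in 20 of 26 members. In 5xFAD, replicate 1 departed by 0.34 and was highest in 25 of 34. Among the libraries labelled Cre, replicate 1 departed by 0.2 and was highest in 14 of 25, and replicate 4 departed by -0.24 and was lowest in 14 of 25. At 3 months WT replicate 3 and IRF8KO replicate 2 departed by -0.36 each, in the IRF8KO experiment. In a group of 3, departures stay at 0 unless a library lies on 1 side for most members, so groups of 3 and 4 do not compare. Replicates 1, 2 and 3 of 5xFAD/IRF8KO each departed by 0, while their median member log2 ratios to the 5xFAD mean were 0.34, 0.72 and -0.72. Groups without Irf8 at 9 months were uneven, with 4 to 9 members at 0 counts in each library, against 0 to 3 in WT and 5xFAD. Their members without counts differed between libraries. Oasl2, for example, was 0, 57.6 and 0 CPM in 5xFAD/IRF8KO.

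The interferon pathway around these genes was measured from lists of other genes. Interferon genes themselves were almost absent, since 4 of 21 had any count, 38 counts over all 33 libraries, and the highest level was 1.63 CPM (Ifnk, in 5xFAD/IRF8KO replicate 1). Ifnb1 had 5 counts in 5xFAD replicate 1, 1 in 5xFAD replicate 3 and 5 in Batf3KO replicate 3, and 0 elsewhere. Of 9 receptors and kinases, 2 rose and 0 fell at 3 months in IRF8KO, where 4.15% of all genes rose and 3.24% fell. At 9 months 1 rose and 2 fell, where 19.6% of all genes rose and 8.68% fell. Ifnlr1, the receptor of type III interferon, was 0, 6.03, 1.66 and 0 CPM in WT and 33.8, 38.9, 42.8 and 27.7 in IRF8KO at 3 months (4.07 ± 0.99 (SE), adjusted p = 0.0294). At 9 months it had no counts in WT and 44.6, 7.35 and 22.6 CPM in IRF8KO (adjusted p = 0.00331). Ifnar1 rose at 3 months (2.16 ± 0.36 (SE), adjusted p = 0.00517), and Ifnar2 (-1.47 ± 0.25) and Ifngr1 (-1.69 ± 0.30) fell at 9 months.

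Among transcription factors of the pathway, Irf3 (-2.25 ± 0.43 (SE), adjusted p = 0.00218) and Irf5 (-3.46 ± 0.56 (SE), adjusted p = 0.000781) fell at 9 months. Of 14 genes of nucleic acid sensing, 13 were tested at 9 months in IRF8KO against WT, and 1 rose and 5 fell, beside the same 19.6% and 8.68% of all genes. Those that fell were Tlr3, Tlr7, Tlr9, their chaperone Unc93b1 and Tmem173, which encodes STING. Tmem173 was 1050, 1110 and 864 CPM in WT and 101, 82.1 and 59.2 in IRF8KO (-3.64 ± 0.31 (SE), adjusted p = 8.5e-06). Ikbke, a kinase of IRF3, rose (6.73 ± 1.45 (SE), adjusted p = 0.00471). Of 6 brakes on the pathway only Ptpn11 was called there, higher at 1.69 ± 0.46 (SE), adjusted p = 0.0162. In Batf3KO against WT, Tlr7 (0.46 ± 0.08 (SE), adjusted p = 0.00798) and Tmem173 (0.28 ± 0.07 (SE), adjusted p = 0.0336) were higher, and 0 genes of the receptor, transcription factor and brake lists were called. In 5xFAD against WT 0 genes of these 4 lists were called.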

How the data were processed

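RNA was sequenced in 33 libraries of sorted microglia, made with SMART-Seq v4 and Nextera XT per the labels' protocols, with no molecular identifiers, so intervals and floors cover counting error only. The authors deposited whole-number counts of reads per gene, in 3 columns by strand, and the column that ignores strand was used, so antisense and overlapping genes cannot be told apart. The submitters' processing notes name bcl2fastq, STAR 2.5.2b, Picard 2.17.11, Subread, featureCounts and mm10, with no role or order. The annotation release is not given in the sources used here. Symbols and positions came from GENCODE M21 (GRCm38), where 54079 of 54146 identifiers were found.

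Counts were filtered with edgeR's default rule, scaled with TMM and compared by quasi-likelihood F-tests (edgeR 4.0.16, run under R 4.3.3), with Benjamini-Hochberg adjustment over all genes. The 12 libraries aged 9 months shared 1 fit, and each other experiment its own, while differences between experiments were fitted on the libraries of both. DESeq2 1.42.0, RLE size factors, no filter, a replicate block, a Y-linked covariate, all libraries in 1 model, the compared groups alone and leaving out each replicate were alternatives. The fits were tested on simulated counts. Standard errors come from the quasi-likelihood statistic. A fold against a group at 0 used 3 counts over the group.

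Every called member was named, and in comparisons with over 10 called the 8 with the smallest adjusted p were given in full. Promoters were printed for the 4 members called most often and 2 called in none. The members and lists were chosen with earlier results of these data known. One gene of the pathway lists is not reported here.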

Additional observations from a re-analysis of the deposited data

Results flagged for a closer look

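In groups of 4 libraries, 87 combinations of a member and a group were examined and 6 held a library set far from the rest; chance alone flags about 1 in 20 such groups. WT replicate 2 at 3 months in the IRF8KO experiment stood out for Ifit1 (36.6 CPM), Ifit3 (48.2 CPM) and Ifit3b (26.4 CPM), which are neighbours on chromosome 19. WT replicate 1 of that group stood out for Ifi35 (83.0 CPM). The library labelled Cre replicate 1, whose Irf8 level went against its label, stood out for Oasl2 (15.1 CPM) and Rtp4 (236 CPM).

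Differences between effects passed the test for 12 combinations of a member and a contrast. Between 9 and 3 months the effect of IRF8KO differed for Isg15 (3.62 on the log2 scale), Rsad2 (7.42), Ifi27l2a (4.23), Ifitm3 (5.17), Cmpk2 (2.79) and Mx2 (-8.67). IRF8KO and Batf3KO differed for Ifi27l2a (-4.39) and Ddx58 (2.56). Cre and IRF8KO differed for Oas2 (-6.26), Ifi27l2a (2.90), Ddx58 (-3.02) and Cmpk2 (-3.57).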

How the results depend on the processing

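Of 761 values of single members recomputed under the alternatives, over 52 results, 656 kept their direction and their side of the threshold, 105 kept the direction and lost the call, and none turned. The call of 9 members in IRF8KO against WT at 9 months stayed within 7 to 12 in every setting run. In IRF8KO against WT at 3 months the 4 members became 8 with DESeq2, 7 without the low-count filter, 8 with all 33 libraries in 1 model and 1 with a Y-linked covariate, and 1 to 11 when a replicate was left out. In 5xFAD against WT the 1 member became 3 with DESeq2, 3 with all 33 libraries, 16 with the compared groups alone, 0 with the Y-linked covariate and 0 without any single replicate. In 5xFAD/IRF8KO against 5xFAD the 13 became 6 with the Y-linked covariate and 10 to 15 without a replicate, and in IRF8KO against 5xFAD 8 to 14 without a replicate. The 0 members in 5xFAD/IRF8KO against IRF8KO became 3 with DESeq2, 1 without the filter, 1 with all libraries and 0 to 1 without a replicate. The interaction gave 3 with DESeq2, 1 without the filter, 4 with all libraries and 0 to 1 without a replicate. Batf3KO against WT gave 1 with DESeq2, 5 without the filter and 0 to 1 without a replicate, and Cre against flox 1, 4 and 0 to 7. For differences between effects, the 6 of IRF8KO between ages became 12 with all libraries and 5 to 9 without a replicate, the 2 of IRF8KO and Batf3KO became 1 with RLE size factors and 1 to 5 without a replicate, and the 4 of Cre and IRF8KO became 7 with DESeq2 and 2 to 10 without a replicate. Beyond the smaller number of samples or genes, the cause of these changes was not tested.

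A fit with the replicate number as a block called 6 members at 3 months, 10 in IRF8KO against WT at 9 months, 0 in 5xFAD against WT, 13 in 5xFAD/IRF8KO against 5xFAD, 13 in IRF8KO against 5xFAD, 4 between ages, 2 between IRF8KO and Batf3KO, and 0 between Cre and IRF8KO, and 0 in the other 4 comparisons. Same-numbered libraries correlated at -0.077 to 0.244 in the IRF8KO experiment at 3 months and -0.133 to 0.168 at 9 months. They correlated at -0.289 to -0.007 in the Batf3KO experiment and -0.078 to 0.227 in the conditional one. In none of the 4 experiments did every library correlate best with one of its own number. At 3 months WT replicates 2, 3 and 4 did (0.224, 0.244 and 0.14), while WT replicate 1 correlated best with IRF8KO replicate 2 (0.238). The labels state no pairing, and these values do not decide it.

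Over all genes the counts called moved too. The 290 of 5xFAD against WT became 4546 with the compared groups alone, 826 with DESeq2, 806 with all libraries, 163 without the filter, 105 with the block and 3 with the Y-linked covariate. The 970 at 3 months became 2572 with DESeq2, 1655 without the filter, 3300 with all libraries and 488 with the Y-linked covariate, and the 4136 at 9 months became 6836 with all libraries. The 4054 of 5xFAD/IRF8KO against 5xFAD became 1482 with the Y-linked covariate and 6783 with all libraries. For Batf3KO the 503 became 814, 998, 216 and 10 with DESeq2, without the filter, with the block and with all libraries, and for Cre the 0 became 160 with DESeq2, 618 without the filter and 3 with all libraries. RLE size factors moved the median of all genes by 0.164 between ages, -0.17 for IRF8KO against Batf3KO and 0.1 for IRF8KO against 5xFAD. The shallowest library, with 605376 counts, was a WT library at 9 months, so low members such as Oas3 and Ifi44 were near the floor there.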
